A study of Mus musculus with 23 samples.

Results

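The transcriptional response to fear conditioning was examined in the dorsal hippocampus of mice without functional Acss2. The comparison set 4 libraries of Acss2 KO mice killed 30 min after contextual fear conditioning (KO fear) against 5 libraries of Acss2 KO mice taken directly from the home cage (KO home cage). These 9 libraries were chosen by genotype, region and behaviour from the 23 libraries of the series. All the mice were on a C57BL6/J background, and both KO groups carried the same constitutive deletion, of exons 3 to 7, made in one-cell embryos. Conditioning used 1 shock in a context, and no group was handled or exposed to the context without shock, so the effects of shock, context and handling cannot be told apart. WT mice of the same strain gave 3 libraries after the same conditioning (WT fear) and 5 from the home cage (WT home cage). They entered the fit because they tie the batches together. Polyadenylated RNA was counted per gene in 1 mm dorsal sections, which hold neurons, glia and vessels, so that fewer cells of a type and less RNA per cell cannot be told apart. The labels do not give sex or age, nor whether each library came from its own animal. P-values therefore measure the spread between these libraries.

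ACSS2 joins acetate to coenzyme A to make acetyl-CoA, in the cytosol and in the nucleus, where acetyl-CoA is the donor for histone acetylation. Neurons that fire switch on immediate early genes within minutes, through transcription factors such as CREB and SRF that are already present. Many of these genes encode transcription factors of the Fos, Egr and Nr4a families, and others, such as Arc, act at synapses. The comparison asks which of these genes differ after conditioning in a hippocampus that lacks this source of nuclear acetyl-CoA.

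Library totals were 7142143 to 19136156 counts in KO fear and 14054430 to 23412644 counts in KO home cage, and 5362773 to 22388429 counts across the WT groups. Batch, as the labels give it, was bound up with group. KO fear 1 and 2 came from batch B1 and had the lower totals, 7142143 and 7993743 counts, while KO home cage 1, 2 and 3 came from B2. Batch B3 held KO fear 3 and 4 and KO home cage 4 and 5, and was the only batch with both KO groups. On the second principal component of the 17 dorsal libraries, KO fear 1 and 2 lay at -35.9 and -37.3, against -22.2 to 22.6 for the other 15. Batch therefore entered the fit as a term, the WT home cage libraries linked B1 with B2, and values within B3 are given beside those over all batches. The targeted gene stood at 5.47, 5.18, 5.43 and 6.04 CPM (read counts relative to the library's scaled total) in KO fear and at 4.17, 4.55, 3.87, 4.89 and 5.85 CPM in KO home cage, against 56.2 to 57.7 CPM in WT fear and 57.6 to 71.3 CPM in WT home cage. All 9 KO libraries thus matched their labelled genotype. Its locus is overlapped by antisense transcripts of Acss2os, Ggt7 and Gss, whose reads cannot be separated from its own in libraries without strand.

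No gene passed over all batches. The 5 genes with the smallest unadjusted p were the channel gene Tmem38b and the activity-induced genes Fos, Egr2, Arc and Btg2, each higher in KO fear. Of 14808 genes tested, 0 (0%) reached an adjusted p under 0.05 with edgeR's quasi-likelihood test, while 714 (4.82%) had an unadjusted p under 0.05, 369 higher (2.49%) and 345 lower (2.33%) in KO fear. The 4.82% is about the share that a threshold of 0.05 gives by chance. DESeq2 on the same 17 libraries called 6 genes (0.0405%), each higher in KO fear: Fos, Egr2, Arc, Btg2, Tmem38b and Ranbp6. Within B3 alone edgeR called 2 of 14516 genes (0.0138%), Fos and Arc, and both rose in KO fear. Among the genes with the smallest unadjusted p, Fos, Egr2, Arc and Btg2 also had each of the 4 KO fear libraries above each of the 5 KO home cage libraries, a pattern that 345 of 14808 genes (2.33%) showed.

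Fos encodes a subunit of the AP-1 transcription factor and is the usual mark of recently active neurons (ENSMUSG00000021250.13, mm10 chromosome 12, 85473890 to 85477273, plus strand). It stood at 18.4, 21.2, 34.7 and 36.5 CPM in KO fear and at 9.45, 13.7, 8.79, 13.4 and 13.4 CPM in KO home cage. The groups did not overlap, and the 2 fear libraries of B3 were the highest. The log2 difference was 1.28 ± 0.25 (± an approximate SE, n = 4 and 5; 2.43-fold) over all batches, with an edgeR adjusted p of 0.404. It was 1.40 ± 0.11 within B3 (2.64-fold, n = 2 each, edgeR adjusted p = 0.0265). With 1 of the 4 B3 libraries left out the log2 difference was 1.37 to 1.44. Such a fit keeps a lone library in 1 group, so its p-value is not given.

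Arc, whose protein regulates AMPA receptor traffic at synapses, was at 266, 228, 307 and 310 CPM in KO fear and at 72, 148, 123, 147 and 163 CPM in KO home cage (ENSMUSG00000022602.14, chromosome 15, 74669083 to 74672570, minus strand). Every fear library lay above every home cage library, and KO home cage 1 was the lowest. The log2 difference was 1.16 ± 0.23 (2.23-fold, edgeR adjusted p = 0.404), and 0.98 ± 0.09 within B3 (1.98-fold, edgeR adjusted p = 0.0267). With 1 of the 4 B3 libraries left out the log2 difference of Arc was 0.93 to 1.05.

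Egr2, a zinc finger transcription factor, had low counts and the highest log2 difference of all genes tested (ENSMUSG00000037868.15, chromosome 10, 67535475 to 67542188, plus strand). It stood at 3.42, 6.38, 7.42 and 10.5 CPM in KO fear and at 1.06, 1.52, 0.638, 2.17 and 1.99 CPM in KO home cage. The lowest fear library, KO fear 1, was still above the highest home cage library. The log2 difference was 1.93 ± 0.38 (3.8-fold, edgeR adjusted p = 0.404), and 2.10 ± 0.25 within B3 (4.28-fold, edgeR adjusted p = 0.126). Within B3 Egr2 did pass with no filter on low counts (edgeR adjusted p = 0.0035) and with DESeq2 (adjusted p = 8.25e-06). With 1 of the 4 B3 libraries left out its log2 difference was 1.84 to 2.33.

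Btg2, which encodes an antiproliferative factor that promotes mRNA deadenylation, was at 29.1, 24.7, 33.6 and 38.2 CPM in KO fear and at 15.5, 19.3, 18.1, 22.2 and 24.1 CPM in KO home cage (ENSMUSG00000020423.6, chromosome 1, 134075170 to 134079120, minus strand). The gap between the groups was narrow, since KO fear 2 lay just above KO home cage 5. The log2 difference was 0.61 ± 0.12 (1.52-fold, edgeR adjusted p = 0.404), and 0.62 ± 0.12 within B3 (edgeR adjusted p = 0.87).

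**Figure D1:**
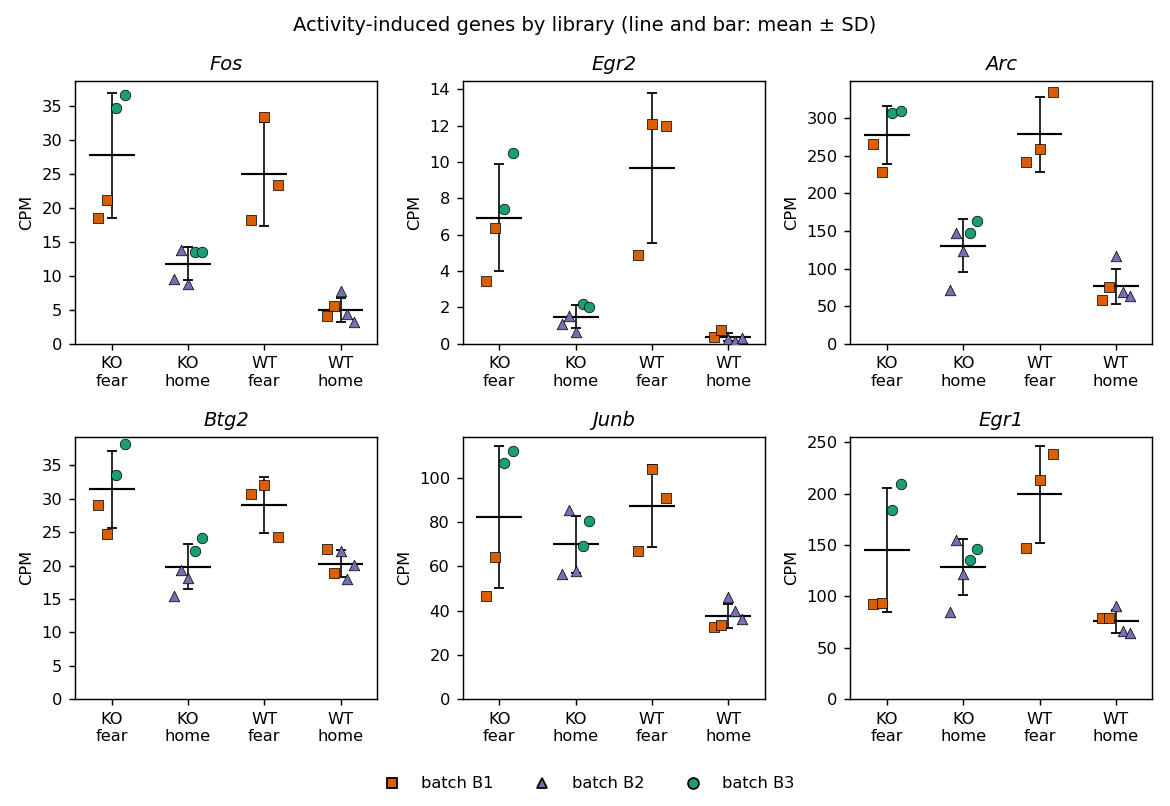
CPM (vertical axis, from 0) of 6 activity-induced genes in each of the 17 dorsal libraries by group, with the batch shown by symbol and the group's mean ± SD as line and bar. Fos, Egr2, Arc and Btg2 have all 4 KO fear libraries above all 5 KO home cage libraries, while for Junb and Egr1 only the 2 KO fear libraries of B3 do so.

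The bases upstream of the start of Fos, Egr2 and Btg2 are printed because these members of the rapid activity-induced list had the smallest p among those with a window in the reference table (RefSeq, GRCm38.p6). Each run is the 250 bases before a start that RefSeq gives, on the gene's own strand, at chr12:85473640-85473889 for Fos, chr10:67537619-67537868 for Egr2 and chr1:134079156-134079405 for Btg2. The Btg2 start in RefSeq lies 35 bases upstream of the gene's start given above from GENCODE, and the Egr2 window lies inside the GENCODE gene, before an internal start. Capitals mark matches to the cAMP response element TGACGTCA or its core TGACG, read on both strands, and to the CArG box, the site bound by SRF.
Fos: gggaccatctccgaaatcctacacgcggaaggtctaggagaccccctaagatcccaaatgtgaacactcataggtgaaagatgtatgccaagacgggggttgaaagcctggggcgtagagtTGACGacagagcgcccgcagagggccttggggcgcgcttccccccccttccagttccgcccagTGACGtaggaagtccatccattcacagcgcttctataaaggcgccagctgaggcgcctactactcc
Egr2: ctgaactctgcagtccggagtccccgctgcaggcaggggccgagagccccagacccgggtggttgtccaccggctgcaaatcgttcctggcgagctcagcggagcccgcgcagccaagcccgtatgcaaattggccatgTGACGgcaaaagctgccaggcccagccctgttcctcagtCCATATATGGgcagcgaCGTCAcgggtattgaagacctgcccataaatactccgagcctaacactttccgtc
Btg2: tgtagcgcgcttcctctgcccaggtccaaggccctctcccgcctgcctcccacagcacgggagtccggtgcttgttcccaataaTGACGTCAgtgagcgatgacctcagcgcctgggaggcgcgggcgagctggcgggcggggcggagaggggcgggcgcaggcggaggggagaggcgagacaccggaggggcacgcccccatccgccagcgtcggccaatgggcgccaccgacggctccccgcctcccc

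Distances are counted from the RefSeq start. The Fos window held TGACG at 62 and 125 bases before the start. The Egr2 window, 1 of 5 listed for that gene, held TGACG at 107 bases on the plus strand and at 51 bases on the minus strand, with a CArG box between them at 63 bases. The Btg2 window held the full TGACGTCA at 159 bases, a palindrome that reads as TGACG on both strands. Of 32851 windows of this length in the table, 1.55% held TGACGTCA, 17.8% TGACG and 1.47% a CArG box. The AP-1 motif TGANTCA, found in 6.75% of the windows, was not among the letters of these 3. Zfp36, the next member of the list by p with a window, was lower in KO fear, and its window is not printed. That window lies inside the GENCODE gene, before an internal start, as for Egr2. It held 0 matches to TGACG or TGACGTCA, and 1 CArG box at 49 bases. A match describes the sequence and is not a measured binding site.

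The rapid activity-induced list held 29 genes, all tested, and 0 passed over all batches, beside 0% of all genes. Of these, 25 lay above 0, with a median log2 difference of 0.27, against 49.6% above 0 and a median of -0.0017 over all genes tested. An unadjusted p under 0.05 was reached by 6 higher and 1 lower, against 2.49% and 2.33% of all genes. Within B3 the median was 0.46 and 24 of 29 lay above 0. Both B3 fear libraries lay above both B3 home cage libraries for 18 of the 29, against 18.6% of all genes, and below them for 2, against 17.3%. All 4 fear libraries lay above all 5 home cage libraries for 4 of the 29, against 2.33% of all genes. These were Fos, Egr2, Arc and Btg2, named above. The summed level of the list was 950, 1003, 1424 and 1498 CPM in KO fear and 762, 1084, 895, 1021 and 1097 CPM in KO home cage. The 2 fear libraries of B3 stood above every home cage library, while those of B1 lay within the home cage range.

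Members of the same families differed in how far the batches matched. Junb, another AP-1 subunit, was at 46.6, 64.4, 107 and 112 CPM in KO fear and at 56.6, 85.6, 58.1, 69.5 and 80.5 CPM in KO home cage. Egr1, which shares its DNA motif with Egr2, was at 92.9, 93.8, 184 and 209 CPM in KO fear and at 85.2, 154, 121, 136 and 146 CPM in KO home cage. For both genes the fear libraries of B3 were above every home cage library. Those of B1 lay within the home cage range, apart from KO fear 1, which was below it for Junb. The log2 difference was 0.36 ± 0.18 for Junb and 0.14 ± 0.22 for Egr1 over all batches, and 0.54 ± 0.10 and 0.47 ± 0.09 within B3, none of which passed (edgeR adjusted p of 0.87 to 0.976). Npas4, a neuron-specific transcription factor gene that responds to calcium entry, was at 7.52, 8.55, 17.2 and 22.1 CPM in KO fear and at 4.37, 6.61, 6.97, 9.57 and 12 CPM in KO home cage. Its log2 difference was 0.42 ± 0.31, and 0.85 ± 0.17 within B3, again with the batches apart.

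Among the remaining members, Fosb, Ier2 and the matricellular protein gene Ccn1 had log2 differences of 0.55 ± 0.25, 0.43 ± 0.17 and 0.59 ± 0.31, and the orphan nuclear receptor gene Nr4a1 had 0.39 ± 0.24. Egr3 and Egr4 stood at 0.12 ± 0.13 and 0.30 ± 0.23, and the MAP kinase phosphatase gene Dusp1 at 0.26 ± 0.19. Gadd45b, a stress-induced gene linked to DNA demethylation, had 0.23 ± 0.15. Zfp36, whose protein destabilises AU-rich mRNAs, lay at the other end with -0.62 ± 0.27, at 1.91, 1.81, 2.2 and 2.54 CPM in KO fear and 2.26, 1.81, 2.6, 3.07 and 3.98 CPM in KO home cage. None of these genes passed over all batches or within B3.

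**Figure D2:**
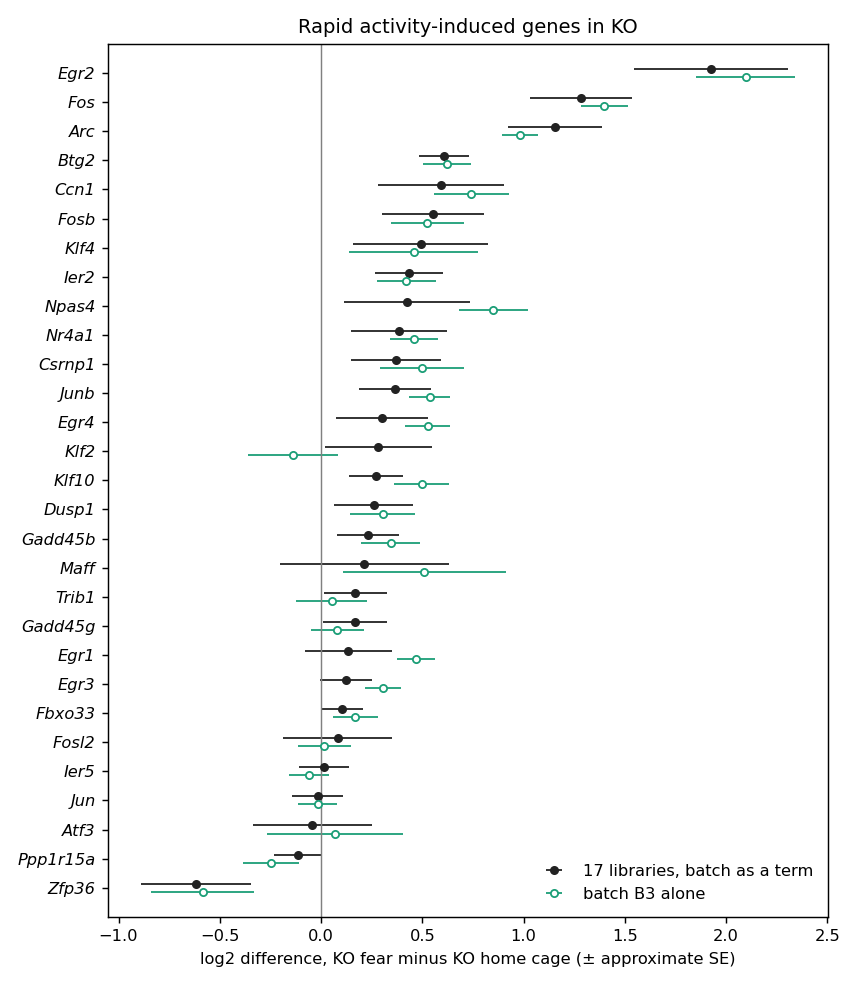
Log2 difference of KO fear minus KO home cage (horizontal axis, ± approximate SE) for the 29 rapid activity-induced genes, over 17 libraries with batch as a term (filled) and within B3 (open). Egr2, Fos, Arc and Btg2 lead at 1.93, 1.28, 1.16 and 0.61, and Zfp36 is lowest at -0.62.

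Delayed activity-induced genes, which need longer or new protein to build up, gave smaller values, and 0 of 21 passed. Of these 17 lay above 0, with a median of 0.13 and of 0.21 within B3. At an unadjusted p under 0.05, 5 were higher and 1 lower, against 2.49% and 2.33% of all genes. Tiparp, a mono-ADP-ribosyltransferase gene, was the 1 member whose groups did not overlap, at 41.1, 24.1, 30.8 and 33.9 CPM in KO fear and 20.6, 22.1, 17.7, 22.4 and 17.3 CPM in KO home cage. Its log2 difference was 0.64 ± 0.16 (1.55-fold, edgeR adjusted p = 0.968). Of all genes, 2.33% had all 4 fear libraries above all 5 home cage libraries. Sik1, a kinase that restrains CREB coactivators, was at 8.47, 6.38, 8.71 and 11.6 CPM in KO fear and at 4.22, 5.48, 4.56, 3.91 and 6.94 CPM in KO home cage, where only KO fear 2 reached the home cage range. Its log2 difference was 0.79 ± 0.22, and Crem, which encodes cAMP-responsive activators and repressors, had 0.45 ± 0.13. Vgf, a secreted neuropeptide precursor gene, was the member lower at an unadjusted p under 0.05, with -0.43 ± 0.20 overall and -0.13 ± 0.10 within B3.

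Feedback inhibitors of ERK signalling had a median of -0.02, with 4 of 9 above 0. An unadjusted p under 0.05 was reached by 0, against 4.82% of all genes. Within B3 the median was 0.16 with 7 of 9 above 0. Both B3 fear libraries lay above both B3 home cage libraries for 5 of the 9, against 18.6% of all genes. They lay below them for 0, against 17.3%. With a library left out the median over all batches ran from -0.06 to 0.08. The ERK phosphatase gene Dusp6 was at 64.8, 68, 80 and 92.2 CPM in KO fear and 64.4, 87.7, 66.1, 77.5 and 72.8 CPM in KO home cage, groups that overlapped, with a log2 difference of 0.13 ± 0.12. Spred1, an inhibitor of Raf activation, was the member with all 4 fear libraries above all 5 home cage libraries, at 196, 157, 139 and 140 CPM in KO fear and 132, 134, 136, 127 and 120 CPM in KO home cage. Its log2 difference was 0.19 ± 0.09 (edgeR adjusted p = 0.968), and 0.17 ± 0.09 within B3. Of all genes, 2.33% had all 4 fear libraries above all 5 home cage libraries. Genes induced by glucocorticoids had a median of -0.08, with 7 of the 17 tested of 18 above 0. Fkbp5, a co-chaperone of the glucocorticoid receptor, stood at -0.21 ± 0.12, the metallothionein gene Mt2 at -0.50 ± 0.25 and the EGF receptor inhibitor gene Errfi1 at 0.25 ± 0.10.

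Among heat shock and chaperone genes 9 of 13 lay above 0 with a median of 0.10. An unadjusted p under 0.05 was reached by 2, against 4.82% of all genes. The median was 0.03 without KO fear 3. Hspa5, the chaperone of the endoplasmic reticulum, was at 478, 544, 482 and 347 CPM in KO fear and at 413, 333, 295, 284 and 269 CPM in KO home cage. KO fear 4 lay below KO home cage 1, while the other 3 fear libraries were above every home cage library. The log2 difference was 0.61 ± 0.15, and 0.58 ± 0.15 within B3 (edgeR adjusted p of 0.968 and 0.87). Dnajb1, a cofactor of HSP70, had 0.31 ± 0.10.

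Of 17 clock genes 10 lay below 0, and 0 passed. The median was -0.16, and -0.07 within B3 and without either WT home cage 1 or KO fear 3, and -0.30 without KO fear 4. At an unadjusted p under 0.05, 4 were lower and 0 higher, against 2.33% and 2.49% of all genes. The 4 were Nr1d1, which encodes the repressor REV-ERB alpha, and Dbp, Bhlhe41 and Ciart. Dbp, a transcription factor gene driven by CLOCK and BMAL1, was at 37.7, 49.3, 47.9 and 48.7 CPM in KO fear and at 55.8, 61.2, 51.7, 72.1 and 69.4 CPM in KO home cage. The groups did not overlap, as for 292 of all genes in that direction (1.97%), and the log2 difference was -0.39 ± 0.11, and -0.56 ± 0.09 within B3 (edgeR adjusted p of 0.968 and 0.87). Nr1d1 was at 32.3, 21.2, 52.2 and 63 CPM in KO fear and at 45.3, 60.7, 66.1, 76.4 and 81.5 CPM in KO home cage, with the fear libraries of B1 the lowest and a log2 difference of -0.66 ± 0.17. Bhlhe41 and Ciart, both repressors in the clock loop, had -0.34 ± 0.11 and -0.44 ± 0.20. Nr1d1 overlaps Thra, and Dbp overlaps Sphk2, on the opposite strand.

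Genes of acetyl-CoA metabolism and of histone acetylation had values near 0 in both directions, and 0 passed. Of 20 genes of acetyl-CoA metabolism 8 lay above 0, with a median of -0.06 and values from -0.29 to 0.43. Of 29 histone acetyltransferases, deacetylases and readers 9 lay above 0, with a median of -0.04 and values from -0.32 to 0.40. Sirt1, an NAD-dependent deacetylase gene, was the 1 whose groups did not overlap, at 22, 19.9, 19.4 and 22.2 CPM in KO fear and 15.1, 15, 12.9, 13.5 and 16.9 CPM in KO home cage. Its log2 difference was 0.40 ± 0.12 (edgeR adjusted p = 0.968). Over all genes tested, 2.33% had all 4 fear libraries above all 5 home cage libraries.

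Glutamate receptor and auxiliary subunit genes had a median of -0.09, with 9 of 25 above 0, and within B3 a median of 0.05, with 15 of 25 above 0. The AMPA receptor subunit gene Gria2 had 0.16 ± 0.09 and Cacng3, an AMPA receptor auxiliary subunit gene, -0.47 ± 0.16. Cacng3 was at 26.8, 22.8, 44.3 and 49.5 CPM in KO fear and at 32.1, 42.9, 48.2, 60.4 and 57.3 CPM in KO home cage, with the fear libraries of B1 lowest. Neuropeptide genes had a median of -0.18 with 3 of 12 above 0, but of 0.005 within B3, and ran from -0.33 without KO fear 3 to -0.09 without WT home cage 1. Of 19 interferon response genes 17 lay below 0, with a median of -0.38 and of -0.29 within B3. At an unadjusted p under 0.05, 4 were lower, against 2.33% of all genes. The median was -0.20 without WT home cage 2. They include genes with few reads, such as Irf7 with 0.482 to 1.27 CPM in KO fear and 0.503 to 2.19 CPM in KO home cage, and Isg15 with 0.41 to 0.963 CPM in KO fear and 0.603 to 2.12 CPM in KO home cage.

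Outside these lists, the higher genes with the smallest p were Tmem38b, Zfp141 and Ranbp6. Tmem38b, which encodes the cation channel TRIC-B of the endoplasmic reticulum, was at 22.1, 23.4, 21 and 19.4 CPM in KO fear and at 18.9, 19.7, 16.2, 13.2 and 14.3 CPM in KO home cage. Its groups overlapped, with KO fear 4 just below KO home cage 2, and the log2 difference was 0.57 ± 0.11, with the smallest unadjusted p of all genes, 6.05e-05 (edgeR adjusted p = 0.404). Zfp141, a zinc finger protein gene, was at 21.7, 19.8, 16.9 and 16.7 CPM in KO fear and 14, 13.3, 13.4, 12.6 and 12.4 CPM in KO home cage. Its groups did not overlap, as for 2.33% of all genes in that direction, and the log2 difference was 0.46 ± 0.11. Ranbp6 of the importin family had 0.32 ± 0.08.

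The lower genes with the smallest p were Sun2, Fndc10, Ngfr, Slc1a5, Prph, Nr1d1, Ppif and Tmem267, none of which passed (edgeR adjusted p = 0.968 each). Sun2, an inner nuclear membrane protein gene of the LINC complex, was at 25, 27.2, 33.8 and 32.5 CPM in KO fear and at 37.1, 39.5, 37.1, 44.6 and 40.6 CPM in KO home cage. Fndc10 was at 15, 17.1, 25.4 and 24.5 CPM in KO fear and at 30.8, 33.1, 28.9, 32.3 and 30.9 CPM in KO home cage. Both, like Prph, had every fear library below every home cage library, as did 1.97% of all genes. The log2 differences were -0.39 ± 0.09 for Sun2 and -0.39 ± 0.10 for Fndc10. Ngfr, the low-affinity neurotrophin receptor gene, Slc1a5, a glutamine transporter gene, and Prph, a neuronal intermediate filament gene, had -1.38 ± 0.34, -1.62 ± 0.42 and -1.50 ± 0.39 at levels of 0.273 to 3.7 CPM. Ppif, which encodes mitochondrial cyclophilin D, and Tmem267 had -0.38 ± 0.10 and -0.60 ± 0.16.

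The difference between the KO and WT responses was tested in the same fit. It passed with the KO value lower for 3 of 29 rapid activity-induced genes (Egr2, Junb and Egr1), 1 of 21 delayed ones (Nr4a2) and 2 of 9 ERK feedback genes (Dusp6 and Spry4), against 0.284% of all genes, and with the KO value higher for 0 of these. The calls depended on the setting, and no gene passed without the batch term or with replicate numbers as a block. In WT, 241 genes passed (1.63%), and 129 were higher (0.871%) and 112 lower (0.756%) after conditioning, among them 10 of the 29 rapid activity-induced genes, all higher, with a list median of 0.71. The difference between the 2 contrasts passed for 71 genes (0.479%), 29 with the KO value higher (0.196%) and 42 with it lower. The KO and WT values share the batch terms, and so rest in part on the same WT home cage libraries. All WT fear libraries came from B1.

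Egr2 had log2 differences of 1.93 ± 0.38 in KO and 4.68 ± 0.49 in WT, and the KO value was lower by -2.75 ± 0.53 (edgeR adjusted p = 0.0406). Its means were 6.93 ± 2.9 CPM in KO fear, 1.47 ± 0.64 CPM in KO home cage, 9.65 ± 4.1 CPM in WT fear and 0.352 ± 0.24 CPM in WT home cage (SD, n = 4, 5, 3 and 5). The KO fear libraries of B1, the batch of all WT fear libraries, averaged 4.9 CPM. The fear groups of both genotypes overlapped, while every KO home cage library apart from KO home cage 3 lay above every WT home cage library. Junb had 0.36 ± 0.18 in KO and 1.51 ± 0.20 in WT (difference -1.15 ± 0.22, edgeR adjusted p = 0.042). Egr1 had 0.14 ± 0.22 in KO and 1.52 ± 0.23 in WT (difference -1.38 ± 0.27, edgeR adjusted p = 0.042). Both genes averaged higher in KO home cage than in WT home cage, at 70 ± 13 and 37.7 ± 5.5 CPM for Junb and 129 ± 27 and 75.6 ± 11 CPM for Egr1 (SD, n = 5 each). The home cage groups were not tested against each other here, and only B2 holds libraries of both.

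Fos and Arc did not pass this test. Fos had 1.28 ± 0.25 in KO and 2.54 ± 0.31 in WT, a difference of -1.26 ± 0.32 (edgeR adjusted p = 0.0661). Arc had 1.16 ± 0.23 in KO and 1.98 ± 0.27 in WT, a difference of -0.83 ± 0.29 (edgeR adjusted p = 0.126). Arc averaged 278 ± 39 CPM in KO fear and 279 ± 50 CPM in WT fear (SD, n = 4 and 3), and stood at 131 ± 36 CPM in KO home cage and 76.4 ± 24 CPM in WT home cage. Fos averaged 27.7 ± 9.2 CPM in KO fear and 25 ± 7.7 CPM in WT fear, and 11.8 ± 2.4 CPM in KO home cage and 4.94 ± 1.8 CPM in WT home cage. These means are not matched for batch. All WT fear libraries came from B1, and the KO fear libraries of B1 averaged 19.8 CPM for Fos and 247 CPM for Arc. Fosb and Nr4a1 had differences of -1.44 ± 0.33 and -1.37 ± 0.30 (edgeR adjusted p of 0.0521 and 0.0507). Btg2 had 0.61 ± 0.12 in KO and 0.50 ± 0.14 in WT, a difference of 0.10 ± 0.16 (edgeR adjusted p = 0.716).

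Other genes that passed with a lower KO value were the ERK phosphatase gene Dusp6 (0.13 ± 0.12 in KO, 0.99 ± 0.13 in WT), Nr4a2, an orphan nuclear receptor gene (-0.07 ± 0.19 in KO, 1.31 ± 0.22 in WT), and Bhlhe40, a clock repressor gene that also responds to activity (-0.36 ± 0.18 in KO, 1.11 ± 0.20 in WT). Cacng3 (-0.47 ± 0.16 in KO, 0.65 ± 0.18 in WT) and Klf16, a zinc finger transcription factor gene (-0.15 ± 0.13 in KO, 0.82 ± 0.15 in WT), did so too. With a higher KO value were Serpinb8, a serine protease inhibitor gene (0.01 ± 0.17 in KO, -1.61 ± 0.21 in WT), the mitochondrial arginase gene Arg2 (0.04 ± 0.28 in KO, -2.37 ± 0.39 in WT) and Amigo2, an adhesion protein gene (-0.16 ± 0.20 in KO, -1.65 ± 0.25 in WT). Dnah11, a dynein of motile cilia, had 0.43 ± 0.43 in KO and -4.17 ± 0.72 in WT. Mndal, an interferon-inducible gene, had 0.51 ± 0.24 in KO and -1.46 ± 0.30 in WT, and Cald1, which encodes the actin-binding caldesmon, 0.25 ± 0.10 in KO and -0.51 ± 0.11 in WT. Junb is overlapped on the other strand by Prdx2, Arg2 by Vti1b, Amigo2 by Pced1b and Dnah11 by Cdca7l, so their counts may include reads of those genes.

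Markers of regions and cell types moved with the WT groups, and the calls moved with the libraries left out. Egr2, Junb and Egr1 each passed in 4 of the 17 fits that left out 1 library, those without KO home cage 1 or 3, without WT fear 1 or without WT home cage 1. In the other 13 the adjusted p reached 0.186 for Egr2 and Egr1 and 0.188 for Junb. Fos passed in the fits without WT fear 1 and without KO home cage 1 (adjusted p of 0.0163 and 0.0339), and Arc without KO home cage 1 (adjusted p = 0.0277). DESeq2 called 326 genes with the KO value higher and 581 with it lower. CA1 markers summed to 718 to 1226 CPM in WT fear and 427 to 609 CPM in WT home cage, but to 413 to 1045 CPM in KO fear and 413 to 1008 CPM in KO home cage. Ependymal markers, which include Dnah11, summed to 12 to 14.9 CPM in WT fear and 53.1 to 138 CPM in WT home cage, and to 37.7 to 95.1 CPM in KO fear and 32.9 to 149 CPM in KO home cage. Oligodendrocyte markers summed to 4087 to 5469 CPM in WT fear and 7039 to 14078 CPM in WT home cage, and to 6911 to 10834 CPM in KO fear and 7188 to 12180 CPM in KO home cage. CA2 and CA3 markers, which include Amigo2, summed to 383 to 518 CPM in WT fear and 685 to 1094 CPM in WT home cage, and to 498 to 762 CPM in KO fear and 624 to 1109 CPM in KO home cage. Of these lists, 5 of 9 CA1 markers passed as higher in WT fear than in WT home cage, against 0.871% of all genes. Passing as lower were 9 of 12 oligodendrocyte, 5 of 11 ependymal and 2 of 9 CA2 and CA3 markers, against 0.756%. The interaction calls held 3 of 9 CA1 markers with the KO value lower, against 0.284% of all genes. With it higher were 4 of 11 ependymal markers and 1 of 9 CA2 and CA3 markers, against 0.196% of all genes. The astrocyte, choroid plexus, and pericyte and smooth muscle lists each held 1 such call too. The part of these markers in the interaction was not tested.

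**Figure D3:**
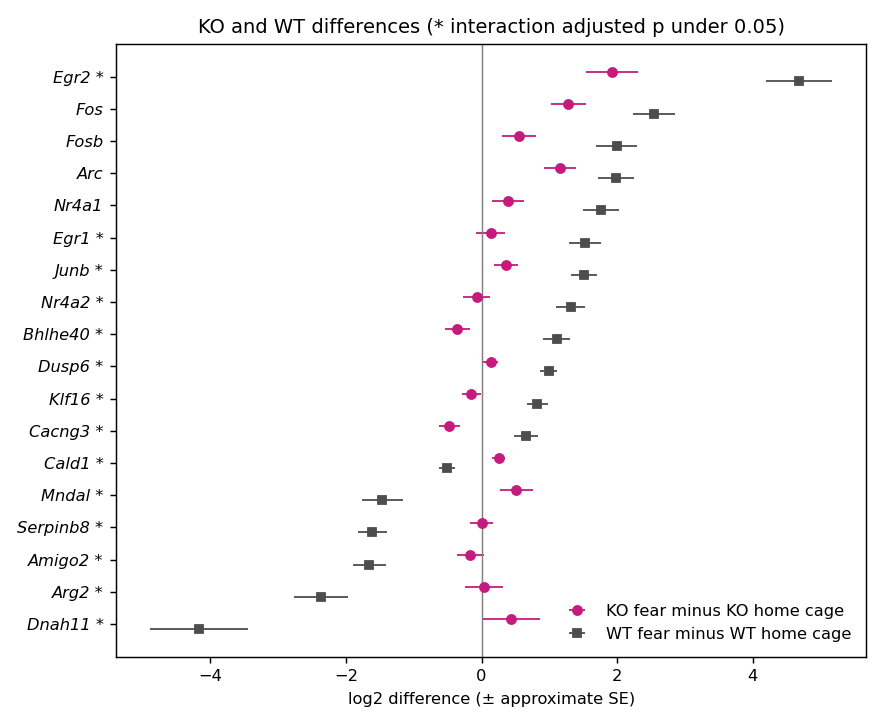
Log2 difference after conditioning (horizontal axis, ± approximate SE) in KO (circles) and WT (squares) for 18 named genes, with an asterisk where the difference between them had an edgeR adjusted p under 0.05. Egr2 is at 1.93 in KO and 4.68 in WT, and Arc and Fos carry no asterisk.

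The sections held markers of the hippocampal fields together with those of neighbouring tissue. CA1, CA2 and CA3, dentate gyrus and inhibitory neuron markers were all measured in the KO libraries, as were glial and vascular ones, and 4 of 6 blood markers had 0 reads in all 9. None of the markers passed in KO fear against KO home cage. CA1 markers had a median of -0.32 with 8 of 9 below 0, but -0.03 within B3, and -0.15 over all batches without WT home cage 1. Their sum was 439 and 413 CPM in KO fear 1 and 2 and 928 and 1045 CPM in KO fear 3 and 4, against 413 to 951 CPM in the KO home cage libraries of B2 and 937 to 1008 CPM in those of B3. The CA1 marker Wfs1 followed this split, at 83.6, 74.4, 172 and 198 CPM in KO fear and 83.9, 256, 202, 234 and 164 CPM in KO home cage. The same batch split was seen in Junb and Egr1 above, and the part of CA1 content in it was not tested.

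Thalamus markers lay below 0 in 10 of 10 over all batches, with a median of -0.40. At an unadjusted p under 0.05, 3 were lower, against 2.33% of all genes. Within B3 the list had a median of -0.33, with 2 of 10 above 0. The markers summed to 95 to 118 CPM in KO fear and 112 to 201 CPM in KO home cage. Rgs16, a regulator of G protein signalling, was the member whose groups did not overlap, at 5.19, 3.97, 5.54 and 5.94 CPM in KO fear and 9.25, 7.78, 6.88, 8.94 and 7.84 CPM in KO home cage. Of all genes, 1.97% had every fear library below every home cage library. Tcf7l2, a transcription factor gene of Wnt signalling, was at 6.56, 4.82, 4.3 and 2.74 CPM in KO fear and 8.49, 4.6, 4.78, 4.82 and 4.11 CPM in KO home cage. The vesicular glutamate transporter gene Slc17a6 was at 10.1, 3.49, 17.7 and 12.5 CPM in KO fear and 13, 6.36, 4.01, 25 and 22.6 CPM in KO home cage. The groups overlapped for both, and the log2 differences were -0.90 ± 0.32 and -1.20 ± 0.53 over all batches, but -0.35 ± 0.27 and -0.67 ± 0.18 within B3.

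Choroid plexus markers lay above 0 in 13 of 13, with a median of 0.34 and of 0.24 within B3, where 6 of 8 were above 0. The median ran from 0.20 without KO fear 2 to 0.63 without KO fear 3. Their sum was 105 to 537 CPM in KO fear and 77.8 to 259 CPM in KO home cage, overlapping widely. It was led by Ttr, the transthyretin gene, at 138, 445, 58.3 and 95.1 CPM in KO fear and 199, 48, 124, 36.5 and 52.1 CPM in KO home cage. Oligodendrocyte markers had a median of -0.25 with 10 of 12 below 0, and Mag of the myelin sheath stood at -0.30 ± 0.25. Without WT home cage 2 these were -0.04 and -0.12, and without WT home cage 1 -0.40 and -0.44. Astrocyte markers had a median of 0.08, with the water channel gene Aqp4 at 0.42 ± 0.16. Medians of the dentate gyrus, CA2 and CA3, inhibitory neuron, microglia, endothelial, pericyte and ependymal lists lay between -0.08 and 0.14, and that of neocortex at -0.16, with the layer marker Fezf2 at -0.61 ± 0.25.

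**Figure D4:**
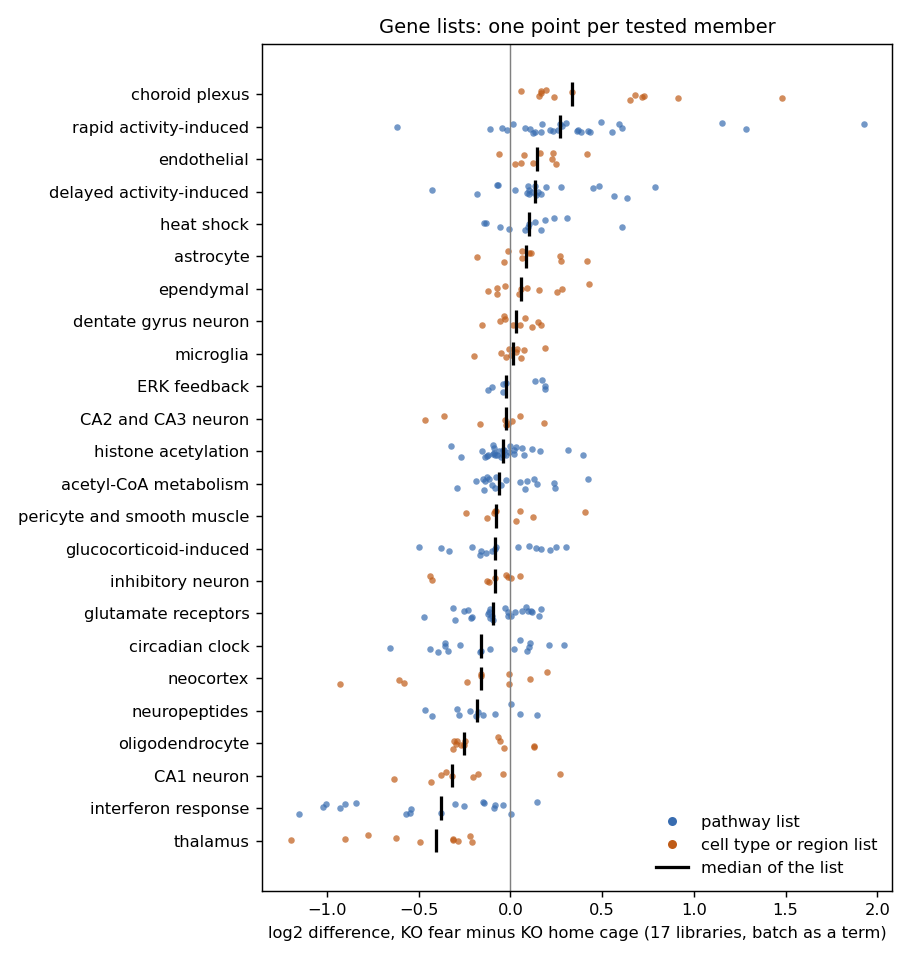
Log2 difference of KO fear minus KO home cage (horizontal axis) for each tested member of 24 gene lists, with the list's median as a bar. The rapid activity-induced list has a median of 0.27 and holds the highest value, Egr2 at 1.93, and the thalamus list has the lowest median, -0.40.

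The size of the 4 leading differences varied little across 25 other settings, while their calls depended on the setting. Fos ran from 1.18 to 1.40, Egr2 from 1.64 to 2.30, Arc from 0.98 to 1.24 and Btg2 from 0.55 to 0.67 on the log2 scale, above 0 each time. Egr2 passed with DESeq2 (adjusted p = 0.0262) and, as the 1 gene called (0.00675%), by edgeR without the batch term (adjusted p = 0.0444). Fos and Arc passed with DESeq2 (adjusted p = 0.0130 each) and within B3, and Btg2 with DESeq2 alone (adjusted p = 0.0130). Leaving out any 1 of the 17 libraries gave 0 calls by edgeR.

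**Figure D5:**
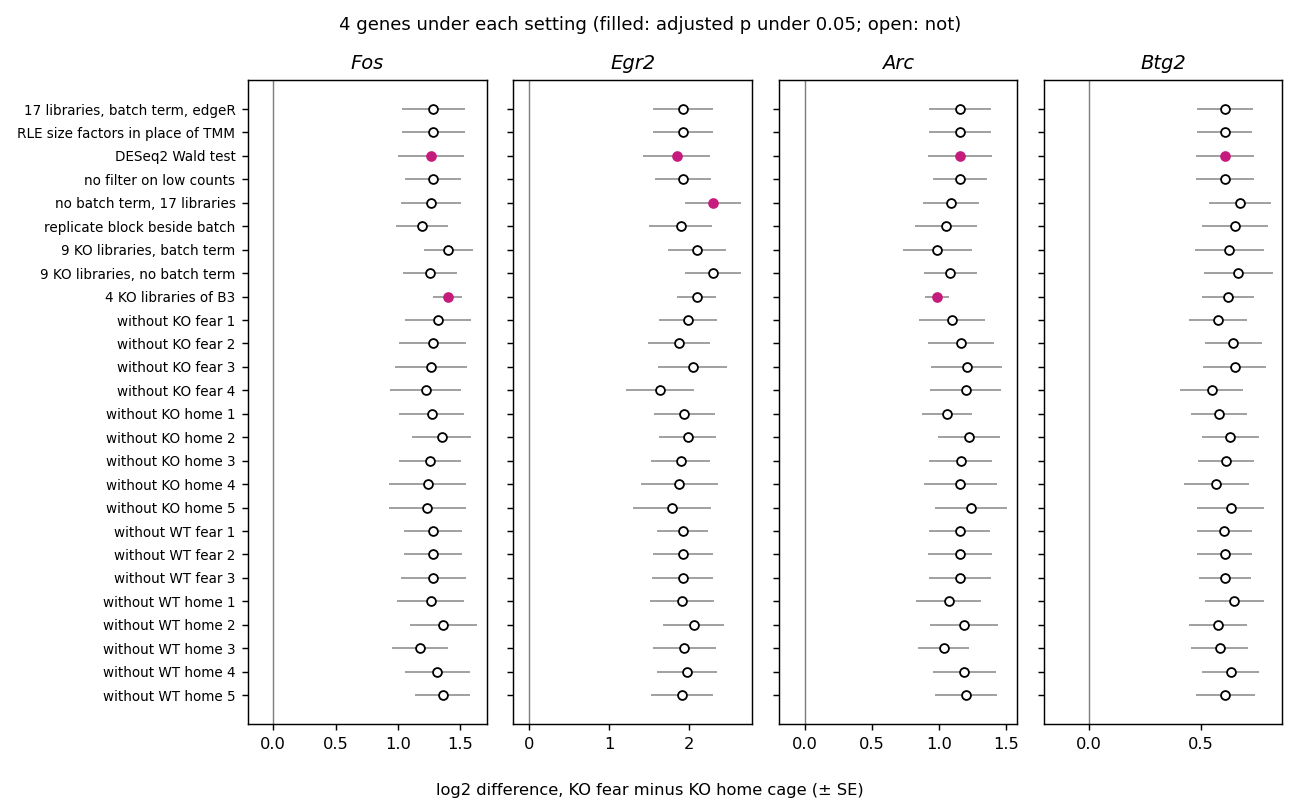
Log2 difference of KO fear minus KO home cage (horizontal axis, ± SE) for Fos, Egr2, Arc and Btg2 with 17 libraries and batch and under 25 other settings, filled where the adjusted p was under 0.05. The filled points are DESeq2 for all 4 genes, the fit without batch for Egr2, and B3 alone for Fos and Arc.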

How the data were processed

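Per the submitters' processing notes, the tools were STAR, SAMtools 1.1, HTSeq 0.9.1, DESeq2 and limma with the mm10 build, and no gene annotation is named in the sources used here. Per the labels' protocols, polyadenylated RNA from 300 ng of total RNA was made into libraries with the NEBNext Ultra II kit, which does not mark strand. The authors deposited raw counts for 24985 gene symbols, 26 of them turned into dates, and 98.1% matched GENCODE M21, whose coordinates are printed 1-based. The other deposited tables were not used. Counts were tested in R 4.3.3 with edgeR 4.0.16 (TMM, filterByExpr at its defaults of 10 counts, 15 in total, group and batch on 17 dorsal libraries, 11 residual degrees of freedom). B3 alone left 2. P-values are two-sided, Benjamini-Hochberg adjusted across the whole table and called under 0.05. CPM use TMM-scaled totals. The approximate SE is the size of the log2 difference over the square root of F, and the median SE over genes was 0.152. All 16 replicate pairs of the KO groups differed by more than sampling noise (chi-square per gene of 6.3 to 50.5). The steps were tested on simulated counts.

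The comparison, the 25 gene lists and the rules were chosen with earlier results of these data known. Genes were named by rule: the targeted gene, the 8 higher and 8 lower genes with the smallest p, rapid list members, up to 6 members of each other pathway list and 3 of each marker list, the 10 smallest p in WT, and the 10 smallest among the interaction calls. One gene that this rule names is not reported here. Alternatives were RLE scaling, DESeq2 1.42.0, no filter, no batch term, a replicate block, the 9 KO libraries alone and each library left out. Those for WT and within B3 were chosen after seeing the data.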

Additional observations from a re-analysis of the deposited data

Results flagged for a closer look

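The difference between the KO and WT responses passed for 15 of the named genes, given here as the KO log2 difference minus the WT one (edgeR adjusted p of 0.038 to 0.0437). It was below 0 for Egr2 (-2.754), Bhlhe40 (-1.466), Nr4a2 (-1.387), Egr1 (-1.384), Junb (-1.146), Cacng3 (-1.123), Tmem267 (-1.049), Klf16 (-0.9734) and Dusp6 (-0.8553). It was above 0 for Dnah11 (4.595), Arg2 (2.406), Mndal (1.975), Serpinb8 (1.614), Amigo2 (1.488) and Cald1 (0.7586). The number of such calls changed with most settings.

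Of 192 groups of values examined, 8 held a library far from the rest of its group, where chance gives about 1 in 20. In KO fear these were Amigo2 at 33.36 CPM in replicate 2, against at most 23.5 CPM in the others, Dbp at 37.72 CPM in replicate 1, against at least 47.9 CPM, and Nr4a3 at 124.6 CPM in replicate 4, against at most 104.5 CPM. The summed dentate gyrus markers stood at 1130 CPM in KO fear 1, against at most 862 CPM. KO home cage 1 stood apart in Tcf7l2 at 8.493 CPM, against at most 4.82 CPM, in Vgf at 144.1 CPM, against at least 191 CPM, and in summed ependymal markers at 149.1 CPM, against at most 60.1 CPM. Summed blood markers were at 7.962 CPM in KO home cage 4, against at most 3.32 CPM.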

How the results depend on the processing

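Over 17 libraries edgeR called 0 genes higher and 0 lower in KO fear. DESeq2 called 6 higher, the fit without batch 1 and B3 alone 2, of which 4, 1 and 2 were members of the gene lists; lower calls stayed at 0 in all 25 settings, and leaving out each library gave 0 to 0. The interaction gave 29 higher and 42 lower calls: 326 and 581 with DESeq2, 162 and 238 with no filter, 0 and 0 without batch, 0 and 0 with the replicate block, and 91 lower with RLE. Leaving out a library gave 0 to 384 higher and 0 to 730 lower. Higher calls rose over 1.5 times without WT home cage 1 (254), WT fear 1 (277) or KO home cage 1 (384), lower calls also without KO home cage 3 (68), and at most 3 were left in either direction without any of the other 13. In WT, 129 higher and 112 lower calls became 524 and 414 with DESeq2, 255 and 273 with no filter, 338 and 374 without batch and 9 and 6 with the block, and 5 to 543 and 1 to 439 with a library left out, the lowest without WT home cage 2 and the highest without WT fear 1 and WT home cage 1. These moved over 1.5 times in 16 and 13 of the 17 fits. Within B3, leaving out 1 of 4 libraries gave 4 to 10 higher and 0 to 5 lower. The cause was not tested.

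Values near 0 turned sign. Serpinb8 (0.01) had -0.40 without batch, -0.036 with the block, -0.054 and -0.40 in the 9 KO libraries with and without batch, -0.059 in B3, and -0.051 to 0.057 with a library left out. Arg2 (0.04) had -0.25, -0.27, -0.25 and -0.27 without batch, in the 9 KO libraries with and without batch and in B3, and -0.094 to 0.21 with a library left out. Nr4a2 (-0.07) had 0.084, 0.027, 0.077 and 0.022 in the same settings, and -0.13 to 0.0025. Without batch, in 17 and 9 libraries, Egr3 had -0.036 and -0.042, Gadd45b -0.00049 and -0.0071, and Nr4a3 -0.056 and -0.062.

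Replicate numbers did not pair the KO libraries: same-numbered fear and home cage libraries had correlations of 0.161, -0.0494, -0.0515 and 0.0754, and not every library correlated best with its own number. With the replicate block the KO comparison gave 0 calls. The 7 libraries of B1, from KO fear and both WT groups, had 5362773 to 9109104 counts, against at least 14054430 in each library of B2 and B3, and fear and batch cannot be told apart among the KO libraries outside B3.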
